A study of Mus musculus with 12 samples.

Results

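The genes described here are 8 markers of injured and incompletely repaired kidney tubule: Havcr1, Lcn2, Vcam1, Cd44, Clu, Cd24a, Prom1 and Sox9. They were chosen by name from the platform annotation, and all 8 were measured, by 1 probe set each, among 19505 named genes on 22206 probe sets. The signals come from Clariom S arrays (Affymetrix) of RNA from whole mouse kidney, 12 samples in all and 3 in each of 4 groups. Wild type mice had received vehicle, and 3 groups of Alport mice had received vehicle, losartan and metformin respectively. All Alport mice were hemizygous for a COL4A5 nonsense mutation (G5X), carried by every cell and not only by the kidney, in a gene for a basement membrane collagen. Losartan, a blocker of the angiotensin II receptor, was given in drinking water at 125 and later 250 µg/mL. Metformin, a biguanide that lowers blood glucose, was given the same way at 2.5 and later 5 mg/mL. Dosing began at 6 weeks of age, and the stated age of every mouse was 16 weeks. The labelled span of the later dose, week 12 to 20, runs past that age. Losartan is labelled as co-administered without saying with what, and the titles of the samples decided what each group is called here.

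When a tubule is damaged, its surviving epithelial cells lose part of their transport programme, spread over the bare basement membrane and divide. Most cells then regain their mature state, while some stay in a flattened, secreting state known as failed repair. Havcr1 (KIM-1) is a surface receptor of injured proximal tubule that binds dying cells, and Lcn2 (NGAL) is a secreted protein that sequesters iron-carrying siderophores. Vcam1 is the adhesion ligand of integrin alpha 4 beta 1 on leukocytes and a marker of failed-repair proximal tubule cells, but activated endothelium makes it too. Cd44 is the receptor for hyaluronan and is also made by leukocytes and by activated parietal cells of the glomerulus. Clu encodes the secreted chaperone clusterin. Cd24a and Prom1 are surface proteins of scattered, progenitor-like tubular cells, and Sox9 is the transcription factor that injured tubular cells switch on during repair.

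The arrays gave 1 log2 value per probe set and sample, and a difference of 1 on this scale is a 2-fold difference of signal. The median of all probe sets ran from 5.88 to 6.065 across the 12 samples. Col4a5, the mutated gene, read 5.06 to 5.83 in the wild type samples and 4.09 to 4.97 in the 9 Alport samples, with no overlap. The tissue label was borne out by Slc34a1 and Umod, of the proximal tubule and the thick ascending limb, whose mean log2 values over all samples were 18.9 and 18.8. Nothing in the labels ties each sample to a mouse of its own, so the p-values reflect only the spread among these samples, which may be technical. Fewer cells of a type and less RNA per cell cannot be told apart in whole tissue. Metformin sample 3 had the lowest value of its group for all 8 markers, and many of the metformin comparisons are given also without it.

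RefSeq promoters were at hand for 4 of the 8 markers, Havcr1, Lcn2, Cd44 and Prom1. The one shown is that of Lcn2, the marker with the largest difference between Alport vehicle and wild type, as the 250 bases before its start at chr2:32387740-32387989 (GRCm38.p6, minus strand), read 5′ to 3′. Capitals mark a match to the letters TTGCNNAA, a shortened form of the site bound by C/EBP factors:

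Lcn2: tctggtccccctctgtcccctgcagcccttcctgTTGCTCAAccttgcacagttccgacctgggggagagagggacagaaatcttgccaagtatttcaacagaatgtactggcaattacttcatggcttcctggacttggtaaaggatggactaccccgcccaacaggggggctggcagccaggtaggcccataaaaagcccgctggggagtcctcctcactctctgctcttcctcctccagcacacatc

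The match lies 216 to 209 bases before the start. These letters, on either strand, occur in 9.56% of 32851 promoter windows of that length. The same search covered the kappaB consensus (7.25% of windows), the AP-1 letters TGANTCA (6.75%), the STAT letters TTCCNGGAA (0.913%), the TEAD letters GGAATG (12.6%) and the TATA letters TATAAA (12.4%), and none of these was in the Lcn2 window. The Cd44 window held 0 of the 6 motifs. Both windows of Prom1 held an AP-1 match, TGACTCA and TGAATCA, and of 3 windows of Havcr1 1 held a C/EBP match. A match is a description of letters and was not tested for function.

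The comparison of Alport and wild type kidneys given vehicle shows the markers in untreated disease. All 8 markers rose in the Alport kidneys, and for each of them every Alport vehicle sample lay above every wild type sample. Over all probe sets 8.43% rose in this comparison (limma, Benjamini-Hochberg adjusted p under 0.05), and 14.2% had Alport vehicle samples all above wild type. The median change of the 8 markers was 3.92 on the log2 scale, against -0.03 for all probe sets. The sizes ranged from 1.12 for Cd24a to 9.05 for Lcn2.

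Lcn2 read 6.05, 6.2 and 6.02 in the wild type samples and 15.46, 14.23 and 15.72 with Alport vehicle. It was near the sample median in wild type kidney and above 97.1% of probe sets in every Alport vehicle sample. Havcr1 read 7.21, 6.71 and 6.36 in wild type and 15.68, 13.66 and 13.80 with Alport vehicle, a rise of 7.62 ± 0.56 (SE, n = 3 per group, limma adjusted p = 4.59e-07), or 6.97 without Alport vehicle sample 1. In both genes the groups were far apart.

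The cell adhesion genes Vcam1 and Cd44 came next in size. Vcam1 read 6.96, 6.82 and 6.90 in wild type and 13.16, 11.75 and 12.25 with Alport vehicle (5.49 ± 0.53, limma adjusted p = 4.97e-06). Cd44 read 5.13, 5.42 and 5.32 in wild type, below the median of every sample, and 10.62, 8.81 and 10.41 with Alport vehicle (4.66 ± 0.56, limma adjusted p = 3.72e-05). In both genes the Alport samples were spread over more than 1 log2 unit while the wild type samples lay close together.

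Sox9 read 5.58, 6.74 and 6.34 in wild type and 9.76, 8.83 and 9.59 with Alport vehicle (3.17 ± 0.36, limma adjusted p = 1.95e-05). Clusterin was already bright in healthy kidney. Its gene Clu read 14.98, 14.63 and 15.02 in wild type and 17.53, 17.33 and 17.35 with Alport vehicle, a rise of 5.76-fold with closely grouped samples on both sides.

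The progenitor-linked surface proteins had the smallest rises. Prom1 read 11.44, 11.74 and 11.32 in wild type and 12.90, 12.37 and 13.13 with Alport vehicle (1.30 ± 0.25, limma adjusted p = 0.00194). Cd24a read 9.85, 10.19 and 10.10 in wild type and 11.29, 10.83 and 11.37 with Alport vehicle (1.12 ± 0.19, limma adjusted p = 0.000748). Each of the 8 rises passed under every alternative that was run, including the loss of any 1 of the 6 samples compared.

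**Figure D1:**
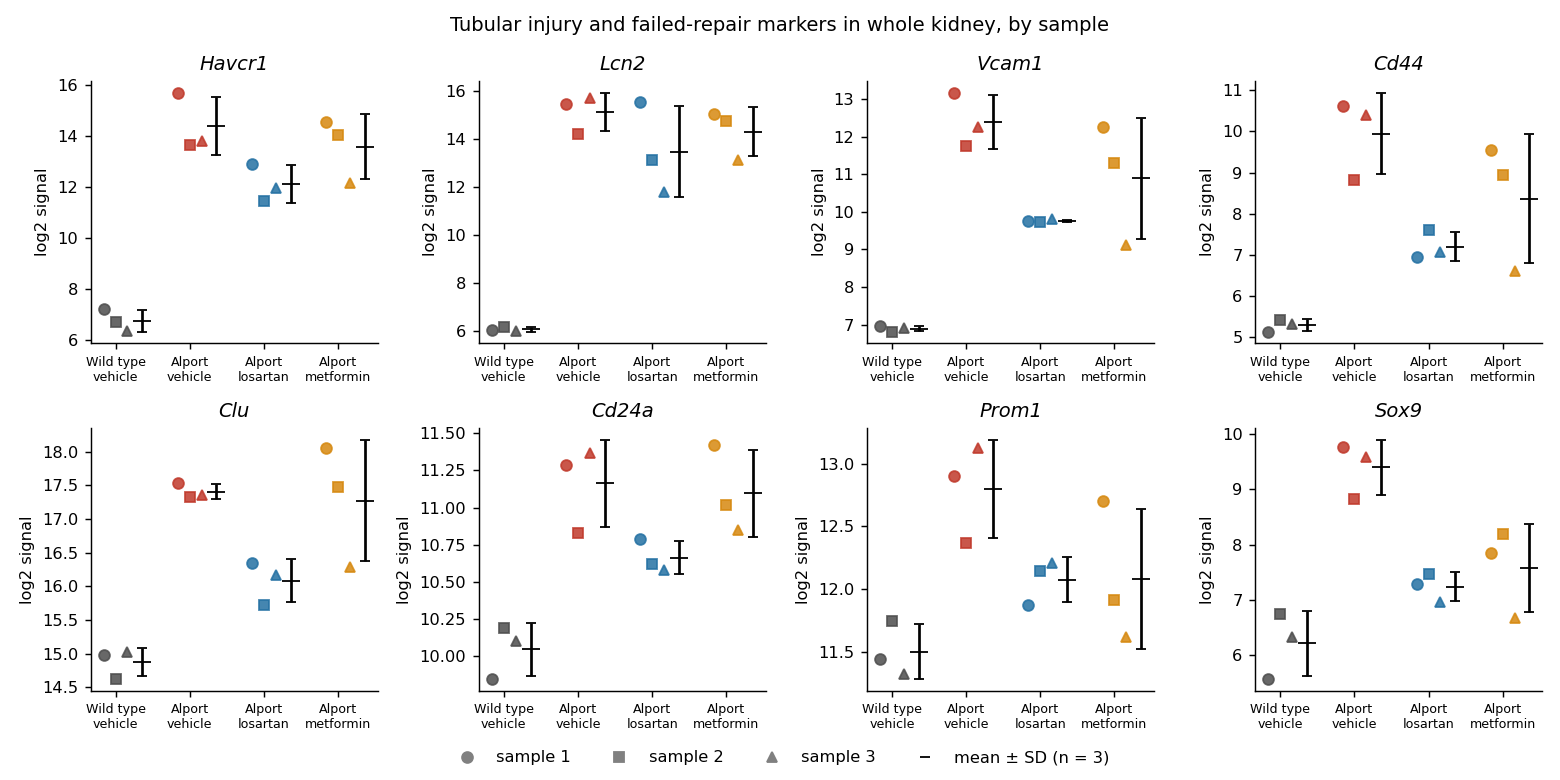
Log2 signal (vertical axis, a separate range per gene) of the 8 markers in the 12 samples, by group on the horizontal axis, with the symbol giving the sample number and the bar the mean ± SD of 3 samples. In every gene the 3 Alport vehicle samples lie above the 3 wild type samples, the losartan samples of Vcam1 lie between 9.74 and 9.80, and metformin sample 3 is the lowest of its group throughout.

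Losartan was set against vehicle among the Alport samples to see what receptor blockade changed. Of the 8 markers 5 fell, Havcr1, Vcam1, Cd44, Clu and Sox9, where 4.11% of all probe sets fell. For 7 of the 8 markers, all except Lcn2, the losartan samples lay wholly below the vehicle samples, as did those of 11.3% of all probe sets. The median change of the 8 markers was -1.90, against 0.01 for all probe sets.

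Sox9 had the smallest p of the 8. Its losartan samples read 7.29, 7.47 and 6.96, a fall of 2.15 ± 0.36 (SE, n = 3 per group, limma adjusted p = 0.00209). Cd44 read 6.94, 7.59 and 7.06 with losartan, so that its highest losartan sample lay more than 1 log2 unit under its lowest vehicle sample. The fall was 6.73-fold (limma adjusted p = 0.00749), and a trended robust variance prior took the adjusted p to 0.0511.

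Vcam1 read 9.75, 9.74 and 9.80 with losartan, the tightest grouping of any marker in any group, with an SD of 0.0321. It fell by 2.62 ± 0.53 (limma adjusted p = 0.00684). Clu read 16.35, 15.73 and 16.17 and fell 2.50-fold (limma adjusted p = 0.0174), a call that was lost without Alport vehicle sample 1 (adjusted p = 0.0742) or losartan sample 2 (0.0941). Havcr1 read 12.91, 11.45 and 11.97 and fell by 2.27 ± 0.56 (limma adjusted p = 0.021). Its call was lost without Alport vehicle sample 1, losartan sample 2 or losartan sample 3 (adjusted p = 0.116, 0.109 and 0.0699), and with a trended robust prior (0.121).

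Lcn2 stood apart from the other markers in the losartan group. It read 15.55, 13.13 and 11.80, a range of almost 4 log2 units, with sample 1 as high as the vehicle samples and sample 3 far below them. The difference from vehicle was -1.64 ± 0.68 and did not pass (limma adjusted p = 0.172). It was -2.67 without losartan sample 1 (adjusted p = 0.00777) and -0.80 without losartan sample 3 (0.564). The other 7 markers of losartan sample 1 deviated from their group means by between -0.26 and 0.80.

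Prom1 read 11.87, 12.14 and 12.21 with losartan and Cd24a 10.79, 10.62 and 10.58. Neither passed the test, at -0.73 ± 0.25 (limma adjusted p = 0.0978) and -0.50 ± 0.19 (0.139), although their losartan and vehicle samples did not overlap. Both passed without Alport vehicle sample 2, the lowest vehicle sample for all 8 markers, at adjusted p = 0.0359 and 0.0479.

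The comparison of metformin with vehicle asks the same of the biguanide. Of the 8 markers only Sox9 fell, against 2.27% of all probe sets, and it was also the only marker whose metformin samples all lay below the vehicle samples, as 9.88% of all probe sets did. Sox9 read 7.85, 8.19 and 6.68 with metformin, a fall of 1.82 ± 0.36 (limma adjusted p = 0.00903, and 0.053 without Alport vehicle sample 1). Without metformin sample 3 the fall was 1.37 (adjusted p = 0.049). The median change of the 8 markers was -0.81, against -0.01 for all probe sets. The losartan and metformin comparisons share their 3 Alport vehicle samples and are not independent of each other.

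The metformin samples of Vcam1 and Cd44 were spread the most, with SDs of 1.60 and 1.56. Vcam1 read 12.25, 11.29 and 9.12, and Cd44 read 9.56, 8.94 and 6.60, so that samples 1 and 2 of each reached into or near the vehicle range while sample 3 lay below every losartan sample. Their differences from vehicle, -1.50 ± 0.53 and -1.58 ± 0.56, did not pass (limma adjusted p = 0.118 and 0.124). Without metformin sample 1 both passed (-2.18 each, adjusted p = 0.0154 and 0.0355), and without metformin sample 3 they were at -0.62 and -0.70.

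Havcr1 read 14.55, 14.03 and 12.15 with metformin and Lcn2 15.04, 14.77 and 13.15. Both overlapped the vehicle samples and neither passed, at -0.80 ± 0.56 (limma adjusted p = 0.507) and -0.82 ± 0.68 (0.597). Without metformin sample 3 the differences were -0.09 and -0.23, and without metformin sample 1 they were -1.29 and -1.18. Clu read 18.05, 17.48 and 16.29, and its sample 1 was the highest Clu value of the series. Its difference from vehicle was -0.13 (95% interval -0.80 to 0.54), and 0.36 without metformin sample 3. Cd24a read 11.42, 11.02 and 10.85, with a difference of -0.07 (95% interval -0.48 to 0.34) that turned to 0.06 without the same sample and to 0.0050 when each sample was centred on its median.

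Prom1 read 12.70, 11.91 and 11.62 with metformin. Its difference from vehicle, -0.72 ± 0.25, was close to that with losartan and did not pass either (limma adjusted p = 0.12). It passed without Alport vehicle sample 2 (0.0492) or metformin sample 1 (-1.035, 0.0214), and without metformin sample 3 it was at -0.50 (0.422).

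The direct comparison of metformin with losartan tests whether the drugs differed. It called 0 of the 8 markers by limma, where 0.045% of all probe sets passed in either direction. The intervals of Havcr1, Vcam1, Clu and Cd24a lay on the side of higher values with metformin. They are not adjusted for the number of genes, and none of these markers passed. Clu came closest, 1.19 higher with metformin (95% interval 0.52 to 1.86, limma adjusted p = 0.291), followed by Havcr1 at 1.47 (0.27 to 2.66, adjusted p = 0.493). Cd24a was 0.43 higher (0.02 to 0.84, adjusted p = 0.573), and its metformin samples all lay above the losartan samples, as did those of 5.77% of all probe sets. Vcam1 was at 1.12 (0.01 to 2.24, adjusted p = 0.591).

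Cd44, Lcn2 and Sox9 were at 1.17 (95% interval -0.02 to 2.36), 0.83 (-0.61 to 2.26) and 0.33 (-0.42 to 1.09). Prom1 was at 0.00 (-0.54 to 0.54), so for Prom1 a difference between the drugs of more than 0.54 in either direction lay outside the interval. These intervals leave room for sizeable differences in Cd44 and Lcn2. Without metformin sample 3, Clu (1.68, limma adjusted p = 0.00472), Vcam1 (2.01, 0.0129) and Cd44 (2.05, 0.0361) were called higher with metformin than with losartan. Without metformin sample 1 the same differences were 0.80, 0.44 and 0.57, and none of the 3 passed (adjusted p = 0.716, 0.962 and 0.952). Havcr1, Lcn2 and Sox9 were at 2.18, 1.41 and 0.78 without metformin sample 3 and at 0.98, 0.47 and 0.20 without metformin sample 1, and none of these passed.

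**Figure D2:**
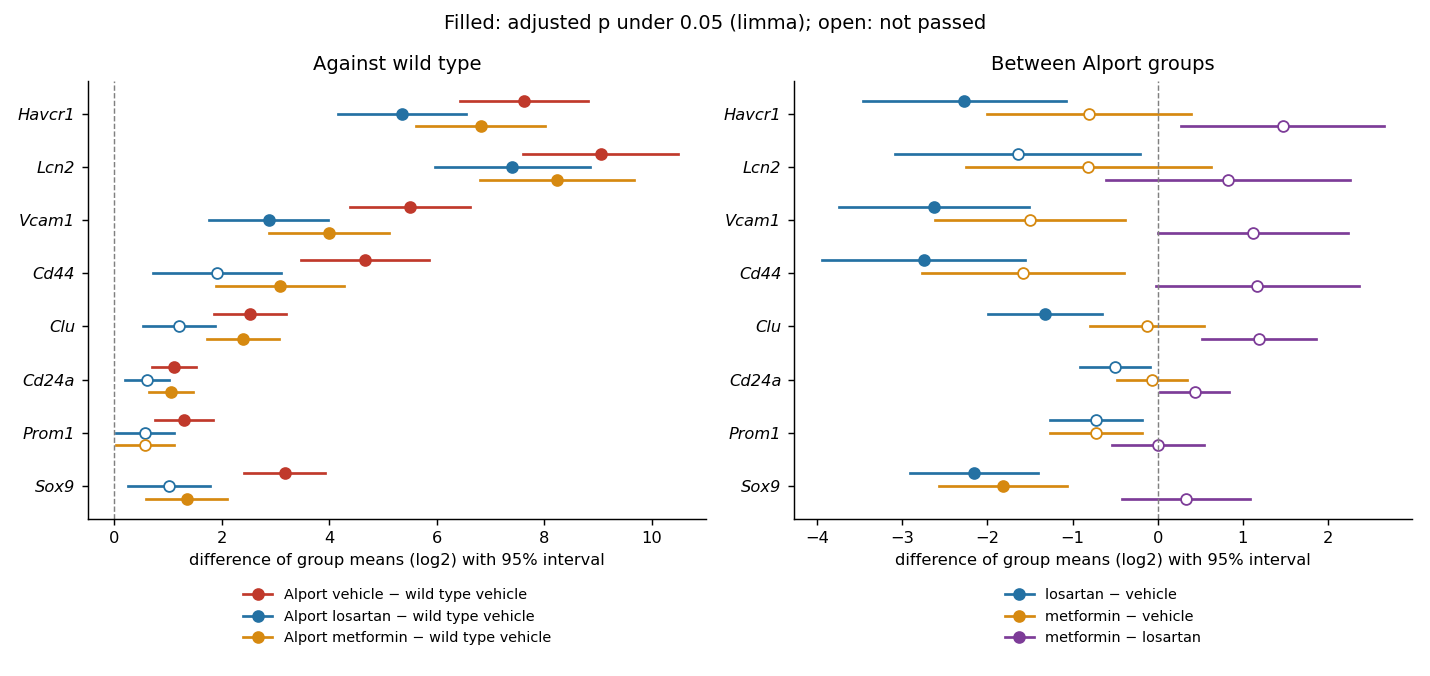
Difference of group means on the log2 scale (horizontal axis) with its 95% interval for each of the 8 markers, against wild type on the left and between Alport groups on the right. Filled points passed at an adjusted p under 0.05. All 8 points for Alport vehicle against wild type are filled, as are 5 for losartan against vehicle, 1 for metformin against vehicle and 0 for metformin against losartan.

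How far each treated group still stood from wild type was tested too. These comparisons share the wild type samples with the first one. With losartan 3 of the 8 markers were above wild type by the test, Lcn2, Havcr1 and Vcam1, against 0.401% of all probe sets. All 8 had losartan samples wholly above the wild type samples, as 8.40% of all probe sets did. With metformin 7 of 8 were above wild type, all except Prom1, against 2.70% of all probe sets, and 6 of 8 had no overlap, against 10.6% of all probe sets.

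Lcn2 was 7.40 ± 0.68 above wild type with losartan (limma adjusted p = 5.76e-05), ranging from 6.38 to 8.25 when samples were left out, and 8.23 ± 0.68 with metformin (6.67e-06). The range with losartan comes from samples 1 and 3, without which the difference was lowest and highest. Havcr1 was 5.35 ± 0.56 above wild type with losartan (limma adjusted p = 0.000155) and 6.82 ± 0.56 with metformin (6.67e-06). Leaving out metformin sample 3 raised the latter to 7.53. These 2 markers thus stayed far above wild type in all 6 treated samples, the lowest of which read 11.80 for Lcn2 and 11.45 for Havcr1.

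Vcam1 was 2.87 ± 0.53 above wild type with losartan (limma adjusted p = 0.0221). The call was lost when any 1 of these 6 samples was left out (adjusted p from 0.0679 to 0.117) and with a trended robust prior (0.142). It held in the other alternatives, with a limma adjusted p as low as 6.4e-06. The difference itself ran only from 2.83 to 2.90 over the samples left out. Its SE pools the spread of all 4 groups. The SDs of Vcam1 were 0.07 in wild type, 0.03 with losartan, 0.71 with Alport vehicle and 1.60 with metformin. With metformin Vcam1 was 3.99 ± 0.53 above wild type (0.000477), or 4.88 without metformin sample 3. Cd44 did not pass with losartan, at 1.91 ± 0.56 (limma adjusted p = 0.177), though fitting these groups alone gave 0.000483. With metformin it was 3.08 ± 0.56 above wild type (0.00542), or 3.96 without sample 3 and 2.48 without sample 1.

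Clu was 1.21 ± 0.32 above wild type with losartan (limma adjusted p = 0.121, and 0.011 when these groups were fitted alone) and 2.40 ± 0.32 with metformin (0.000477). Sox9 was 1.02 ± 0.36 above wild type with losartan (limma adjusted p = 0.267) and 1.35 ± 0.36 with metformin (0.0418), where sample 3, at 6.68, lay below the highest wild type sample. That call of Sox9 was lost without wild type sample 1 or 3 or metformin sample 1 or 2, with adjusted p from 0.105 to 0.179, and after a new quantile normalization (0.0559), when these groups were fitted alone (0.0651) and with a replicate block (0.053). Cd24a was 0.62 ± 0.19 above wild type with losartan (0.204) and 1.05 ± 0.19 with metformin (0.00565). Prom1 was at 0.57 ± 0.25 with losartan and 0.58 ± 0.25 with metformin, and neither passed (limma adjusted p = 0.419 and 0.243).

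By group means the order was the same for all 8 markers, with wild type lowest, then losartan, then metformin, then Alport vehicle. The losartan and metformin means were not separated by the test for any of the 8, and the metformin and vehicle means only for Sox9. For Prom1 the losartan and metformin means, 12.07 and 12.08, were practically equal, and when each sample was centred on its median that of metformin was lower by 0.02.

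The next question was whether the markers moved together from sample to sample, beyond the differences between groups. Each value was taken as a deviation from its group mean, so that differences between group means did not enter. In Alport vehicle sample 2 and in metformin sample 3 all 8 markers lay below their group mean, by 0.60 and 1.09 on average, and both samples had the lowest value of their group for all 8. In Alport vehicle sample 1 and metformin sample 1 all 8 lay above it, by 0.47 and 0.78 on average. The losartan and wild type samples were mixed, with 3 to 5 markers above the mean in each.

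**Figure D3:**
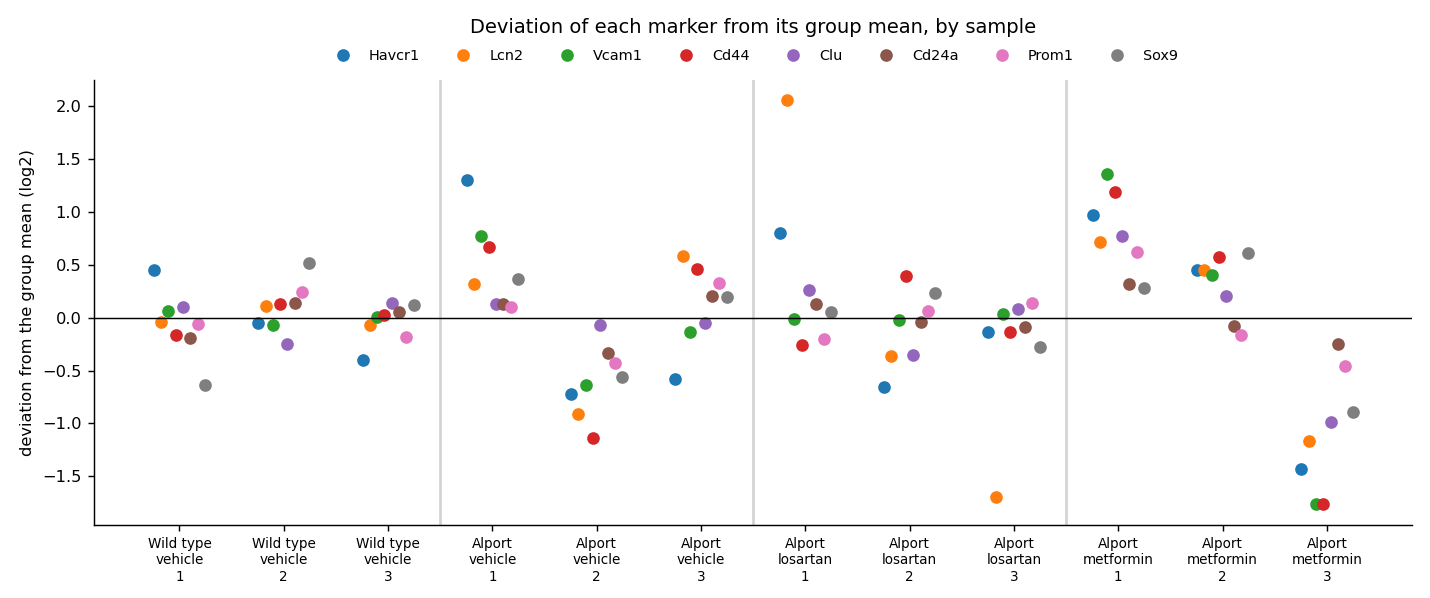
Deviation of each marker from its own group mean (vertical axis, log2) in the 12 samples (horizontal axis), with 1 coloured point per marker. All 8 points lie below 0 in Alport vehicle sample 2 and metformin sample 3 and above 0 in Alport vehicle sample 1 and metformin sample 1, and Lcn2 is the marker farthest from 0 in losartan samples 1 and 3, at 2.06 and -1.69.

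Over the 28 pairs of markers the Pearson r of these deviations across 12 samples was above 0 in every case, from 0.26 for Lcn2 and Prom1 to 0.92 for Vcam1 and Cd44, with a median of 0.66. For each marker the median r with the other 7 ran from 0.52 for Lcn2 to 0.77 for Cd44. Its median r with the 22198 other probe sets lay between -0.02 and 0.01. The lower quartiles of the latter were -0.30 to -0.27 and the upper quartiles 0.25 to 0.30. Correlations of both signs balance over a whole table, so that median does not by itself set the markers apart. Each p was two-sided and exact, from all 1296 rearrangements of samples within groups, and was Benjamini-Hochberg adjusted for the 28 pairs. Of the pairs 1 passed, Lcn2 and Cd24a (r = 0.65, exact permutation p = 0.00154, adjusted p = 0.0432), whose Spearman rho was 0.76 (exact permutation p = 0.00386, adjusted p = 0.0972). That call was lost under each of the 2 changes of scaling that were run. In the 9 Alport samples alone a single pair could not have passed, since the smallest adjusted p it could reach there was 0.13.

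Vcam1 was a member of the strongest pairs. Its r was 0.92 with Cd44 (rho 0.66, exact permutation p = 0.0262, adjusted p = 0.122), 0.89 with Clu (rho 0.78, exact permutation p = 0.0054, adjusted p = 0.0504) and 0.84 with Havcr1 (rho 0.85, exact permutation p = 0.00772, adjusted p = 0.054). Much of this rested on a few samples. Without metformin samples 1 and 3, the farthest from the median of Vcam1, r was 0.76 with Cd44 and 0.32 with Clu. The metformin sample that is left then equals its group mean, so the metformin group no longer enters these values. Without Alport vehicle sample 1 and metformin sample 3, the farthest for Havcr1, r of Havcr1 and Vcam1 was 0.32.

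The pairs of Lcn2 went the other way, except that with Havcr1. The r of Havcr1 and Lcn2 was 0.62 in all samples and 0.63 without Alport vehicle sample 1 and metformin sample 3. Losartan samples 1 and 3 are where Lcn2 departed from the rest. Without both, r of Lcn2 was 0.87 with Vcam1, 0.98 with Cd44, 0.76 with Clu, 0.83 with Cd24a, 0.84 with Prom1 and 0.82 with Sox9. In all 12 samples these were 0.48, 0.49, 0.52, 0.65, 0.26 and 0.54. The losartan sample that is left equals its own group mean, so the higher values rest on the other groups alone. Havcr1 and Sox9 (0.50 in all samples, -0.34 without the farthest 2), Havcr1 and Cd44 (0.68 and -0.16), Clu and Cd44 (0.72 and -0.14), Clu and Prom1 (0.53 and -0.34) and Clu and Sox9 (0.46 and -0.30) changed sign. Without metformin sample 3 the median r of the 28 pairs was 0.36.

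**Figure D4:**
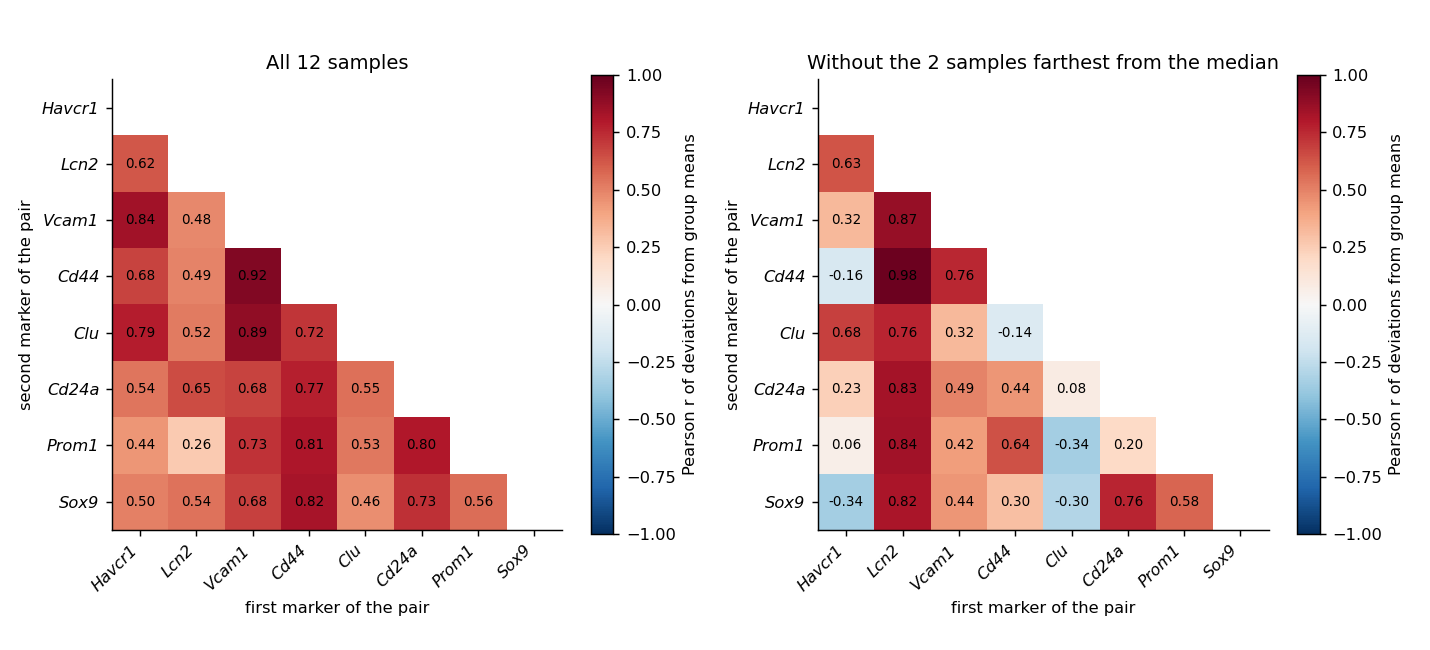
Pearson r of the deviations from group means for the 28 pairs of markers (axes and cells), over 12 samples on the left and without the 2 samples farthest from the median of the first marker on the right, with the colour from -1 to 1. All 28 values on the left are above 0, from 0.26 to 0.92, and 5 on the right are below 0.

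Other genes were set beside each marker by the root mean square (RMS) distance between log2 profiles over the 12 samples, each relative to its own wild type mean. This distance is mostly set by the differences between groups. Nearest to Vcam1 was Timp1, the metalloproteinase inhibitor, at an RMS of 0.46, against a median of 3.78 for all named genes. Nearest to Cd44 was Aldh1a2, which makes retinoic acid, at 0.41, and nearest to Sox9 was Cdh6, a cadherin of the developing nephron, at 0.41. Clu was nearest to H2-Eb1 and Tnfrsf12a at 0.32 each, the one an MHC class II chain and the other the receptor of the cytokine TWEAK.

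Cd24a was nearest to Rassf6 (0.13) and Prom1 to Cenpa (0.18), a centromere histone. Havcr1 and Lcn2 lay farther from their nearest genes, but their median distances to all named genes were larger too. These medians were 5.85 and 7.235, against 0.90 for Cd24a and 0.88 for Prom1. The nearest gene to Havcr1 was Lyz2 at an RMS of 1.58, followed by Lcn2 at 1.62, and the nearest to Lcn2 was Havcr1.

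Genes of the same setting were described as lists. Over all probe sets 8.43% rose and 7.71% fell in Alport vehicle against wild type. With losartan 4.11% fell, and with metformin 2.27% fell and 2.67% rose. Of 27 other measured tubular injury genes 25 rose in Alport vehicle against wild type, 18 fell with losartan and 9 fell with metformin, with median log2 changes of 2.34, -1.31 and -0.77. Among them were Nupr1, a stress-induced regulator (3.96 ± 0.19, then -1.67 with losartan and -1.45 with metformin), the intermediate filament gene Vim (4.06 ± 0.30, then -2.03 and -1.50), Anxa2 and Timp2. All 4 passed in all 3 comparisons. Of 19 measured genes linked to failed repair 12 rose and 1 fell in Alport vehicle, 11 fell with losartan, and 5 fell and 2 rose with metformin. The one that fell in Alport vehicle was Itgb8 (-0.61 ± 0.19, limma adjusted p = 0.0345), and it and Itgb6, chains of integrins that release active TGF-beta, were those that rose with metformin, by 0.85 and 0.78. Ccl2, which attracts monocytes, was at 3.95 ± 0.40 and then -3.04 with losartan and -2.40 with metformin, all past the test. Dcdc2a, a microtubule-binding protein, rose by 2.73 ± 0.35 and fell by 1.38 with losartan, while with metformin it was at -0.61 (limma adjusted p = 0.381).

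Of 17 measured ligands and receptors of the 8 markers 4 rose (Itgb1, Itga4, Itgb7 and Trem2) and 2 fell (Lrp2 and Slc22a17) in Alport vehicle, with a median change of 0.18. Trem2 was dim, under the lower quartile of the sample in 6 of 12 samples. Over all probe sets 8.43% rose and 7.71% fell. Lrp2 (megalin), which takes up filtered Lcn2 and clusterin, fell by 1.00 ± 0.19 (limma adjusted p = 0.00178) and rose by 0.75 with losartan (0.0257). Slc22a17, a receptor of Lcn2, fell by 0.68 ± 0.16 (0.0061), and Itgb1, a chain of the Vcam1 receptor and of other integrins, rose by 1.04 ± 0.18 (0.000811). Of 19 factors of the developing and repairing nephron 4 rose in Alport vehicle, Klf6, Sox4, Jag1 and Wnt7b, and 0 fell. Sox4, of the same family as Sox9, rose by 1.61 ± 0.32 and fell by 1.25 with losartan (limma adjusted p = 0.0247), while with metformin it was at -0.48 (0.479).

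Markers of other cells that could hold these transcripts were examined beside them. Of all probe sets 8.43% rose in Alport vehicle, 4.11% fell with losartan and 2.27% fell with metformin. Macrophage markers rose in 8 of 9 cases in Alport vehicle, fell in 5 with losartan and in 1, Mrc1, with metformin. The log2 of their summed signal was 10.9 in the wild type samples, 12.8 to 14.6 with Alport vehicle, 11.7 to 12.0 with losartan and 12.0 to 13.3 with metformin. Their mean deviation was -0.79 in both Alport vehicle sample 2 and metformin sample 3, the samples in which all 8 injury markers were low. It was 0.11 and 0.61 in Alport vehicle sample 1 and metformin sample 1, where all 8 were high. The highest macrophage deviation, 0.68, was in Alport vehicle sample 3, where the 8 injury markers deviated by only 0.13 on average. Fibroblast and pericyte markers rose in 7 of 7 cases and fell in 7 with each drug, with log2 sums of 12.1 to 12.5, 15.7 to 16.2, 13.9 to 14.3 and 13.8 to 14.6 in the same order. In Alport vehicle sample 2 and metformin sample 3 the fibroblast markers deviated by -0.18 and -0.53 on average. The 27 other tubular injury genes deviated by -0.38 and -0.62 there, with 3 and 0 of the 27 above the group mean. The part of either cell type in the marker results was not tested.

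Of 4 markers of parietal epithelium, the capsule cells of the glomerulus, 3 rose in Alport vehicle, including Akap12 (2.20 ± 0.28) and Cd9 (1.38 ± 0.21), and 3 fell with losartan and 2 with metformin. Their summed log2 signal was 12.0 to 12.3 in wild type, 13.2 to 13.5 with Alport vehicle, 12.4 to 12.7 with losartan and 12.2 to 12.97 with metformin. They deviated by -0.32 and -0.43 on average in Alport vehicle sample 2 and metformin sample 3, and their part was not tested. Of all probe sets 8.43% rose and 7.71% fell in Alport vehicle, 4.11% fell with losartan and 2.27% fell with metformin. Endothelial markers bear on Vcam1. Of 9, Emcn and Eng rose (0.73 and 0.60) and Kdr fell (-0.69) in Alport vehicle, with sums of 15.2 to 15.3 in wild type and 15.5 to 15.8 with Alport vehicle.

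In Alport vehicle 8.43% of all probe sets rose. Neutrophil markers, which bear on Lcn2, were dim. Of 8, Csf3r and Retnlg passed as higher in Alport vehicle, but they lay under the lower quartile of the sample in 6 and 11 of 12 samples, so no size is given. Camp, Ltf and S100a8 lay under it in all 12. Their log2 sums were 6.77 to 7.11 in wild type and 7.14 to 7.37 with Alport vehicle, and the part of neutrophils was not tested. B cell markers bear on Cd24a. Of 6, only Jchain, the joining chain of plasma cells, rose (2.76 ± 0.28), and Cd22 and Pax5 lay under the lower quartile of all samples. In Alport vehicle 1 of 6 collecting duct, 2 of 6 urothelium, 2 of 7 T cell and 2 of 6 podocyte markers rose. Of 6 thick limb and distal tubule markers 0 rose and 2 fell, where 7.71% of all probe sets fell. The collecting duct log2 sums were 13.7 to 14.7 in wild type and 15.1 to 15.4 with Alport vehicle. They were 14.6 to 14.8 with losartan and 15.1 to 15.9 with metformin. The part of these cells was not tested.

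Of 14 measured proximal tubule markers 11 fell in Alport vehicle, where 7.71% of all probe sets fell. With losartan 5 rose, where 3.79% of all probe sets did, and with metformin 3, where 2.67% did. The median changes were -0.68, 0.49 and 0.55. Hnf4a, the transcription factor of the mature proximal tubule, fell by 1.31 ± 0.16 and rose by 1.22 with losartan and 0.83 with metformin. In the samples where all 8 injury markers were low, Alport vehicle sample 2 and metformin sample 3, the proximal tubule markers deviated from the group mean by 0.19 and 0.07 on average, with 13 and 12 of 14 above it. In Alport vehicle sample 1 and metformin sample 1, where all 8 were high, they deviated by -0.21 and -0.03, with 2 of 14 above it in each.

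**Figure D5:**
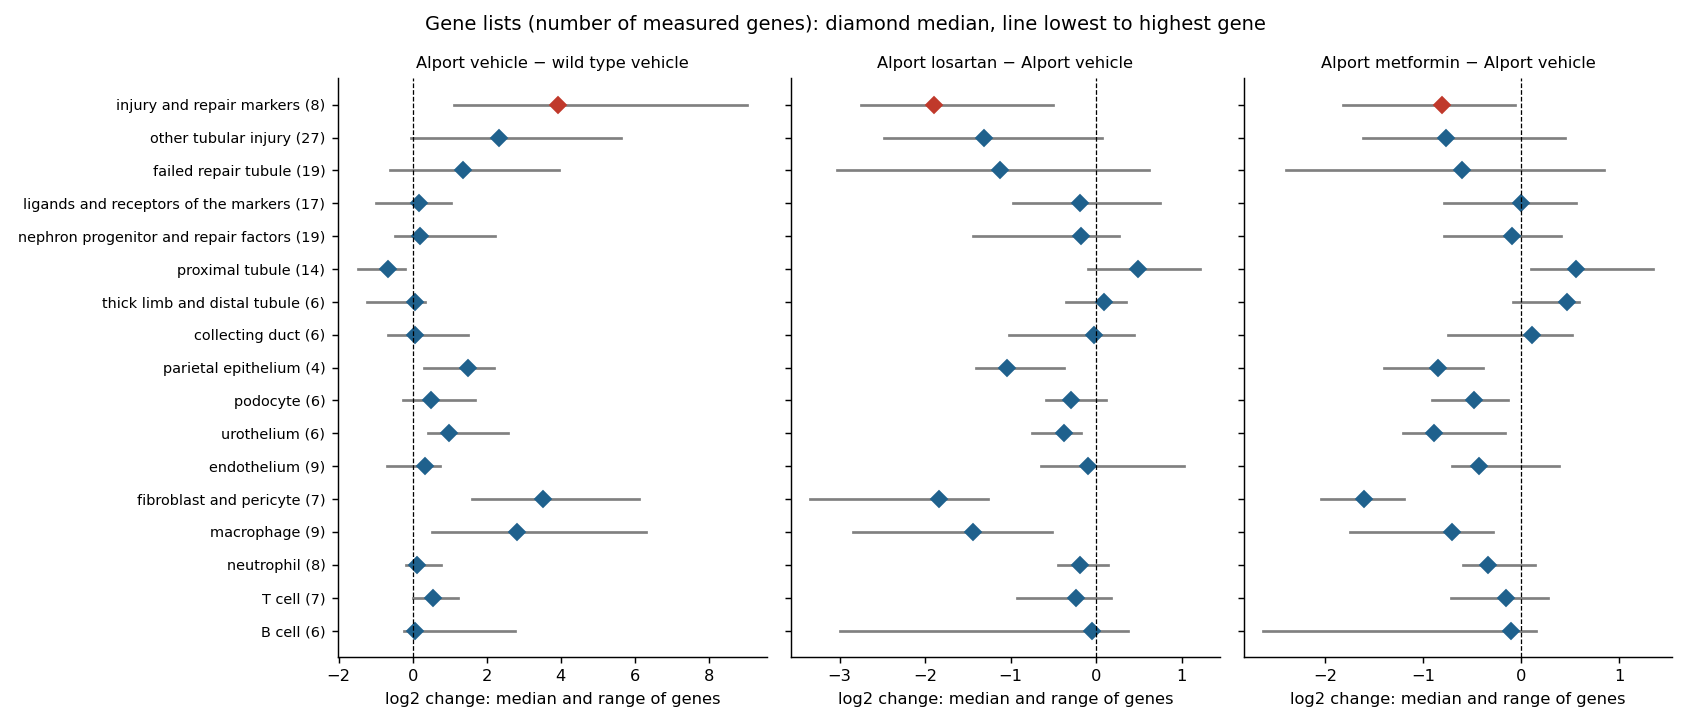
Median (diamond) and lowest to highest gene (line) of the log2 change (horizontal axis) in each gene list, in 3 comparisons from left to right, with the number of measured genes in brackets. The 8 injury and repair markers have medians of 3.92, -1.90 and -0.81, and the proximal tubule list lies on the other side of 0, at -0.68, 0.49 and 0.55.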

How the data were processed

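The authors deposited 1 log2 value per probe set and array for 22206 probe sets in 12 samples, with no missing value. The log2 scale was read from the values (2.3 to 19.88). Per the submitters' processing notes the software was Transcriptome Analysis Console 4.0; how it corrected background, normalized and summarised probes is not given in the sources here. Gene symbols are those of the platform annotation, updated by Entrez identifier against RefSeq (GRCm38.p6), which changed 0 symbols: 19572 had 1 symbol, 0 several and 2634 none. Where a gene had several probe sets the one with the highest mean was used.

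With limma 3.58.1 under R 4.3.3, lmFit and eBayes estimated 1 mean per group from all 12 samples (8 residual degrees of freedom), without a replicate block. Two-sided p-values were adjusted over all 22206 probe sets, and only changes with an adjusted p under 0.05 are called rose or fell, or above. Intervals of differences are 95% intervals for 1 comparison. The fit was tested on simulated data. Over the comparisons it recovered 2% to 10% of made log2 changes of 0.5, 42% to 68% of those of 1 and 94% to 98% of those of 2. A difference of 1 or less can thus miss the test. The number of arrays limits the precision; the median standard error was 0.20.

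The markers, the 16 other lists and the comparisons were chosen with earlier results of these data known. Named genes are the 8 markers; up to 4 members of each pathway list with the smallest p in Alport vehicle against wild type; of each cell type list the member with the highest mean and up to 2 with the smallest p; and the 3 nearest genes by profile. Others were named after their values were seen. Alternatives were 2 scalings, a filter leaving out the dimmest 33.3% of probe sets, 2 variance settings, a fit of only the groups compared, a replicate block and leaving out each sample. Of the listed genes some were not analysed here.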

Additional observations from a re-analysis of the deposited data

How the results depend on the processing

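Of 624 recomputed marker differences 581 kept their direction and their side of the threshold, 22 were no longer called, 13 were newly called and 8 changed sign, all 8 of them differences that had not passed. With losartan against vehicle the count of falling markers went from 5 to 3 with a trended robust prior. It ran from 3 to 7 over the samples left out, with 3 without Alport vehicle sample 1 or losartan sample 2. The share of all probe sets called in either direction was 7.9% as reported and 8.61% with that prior. It was 3.32% and 3.22% without those samples, and 9.34% without Alport vehicle sample 2. With metformin against vehicle the count of falling markers ran from 0 (without Alport vehicle sample 1) to 4 (without metformin sample 1). It was 3 without Alport vehicle sample 2. The share of all probe sets called was 4.94% as reported and 1.56%, 4.04% and 5.94% in these fits, in the same order. Between the drugs the count higher with metformin ran from 0 to 3, with 3 without metformin sample 3. In that fit 0.41% of all probe sets were called in either direction, against 0.045% as reported. Against wild type the count above it with losartan was 5 when these groups were fitted alone and 2 without any 1 of the 6 samples. The share of all probe sets called there was 0.549% as reported and 1.28% when fitted alone. It ran from 0.167% to 0.279% over the samples left out. The causes were not tested. Centring each sample on its median moved the median change of all probe sets in Alport vehicle against wild type from -0.03 to -0.17 and the share of rises among called probe sets from 52.2% to 33.8%. With losartan that share went from 48.0% to 63.1%, with metformin from 54.0% to 68.5%, and for metformin against wild type from 64.5% to 51.4%. It also took Cd24a with metformin against vehicle to 0.0050 and Prom1 with metformin against losartan to -0.017. Over the samples left out, Cd24a and Clu with metformin against vehicle ran from -0.23 to 0.057 and -0.52 to 0.36, and Lcn2 and Prom1 with metformin against losartan from -0.02 to 1.86 and -0.31 to 0.23. The count of covarying pairs, 1, was 0 after median centring, after a new quantile normalization and in the 9 Alport samples, and 0 to 4 over the samples left out, with 4 without wild type sample 3 or losartan sample 1 and 0 without any other. A single pair could not have passed in the 9 Alport samples or with a sample left out, where its smallest possible adjusted p is 0.13 and 0.0648, so these counts of 0 do not bear on stability. The probe set alternative was not run, since each marker had 1 probe set.

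Samples with the same replicate number did not deviate together (r from -0.14 to 0.08 over 18 pairs), and 0 of 12 samples correlated best with their own number. This gave no sign that the numbers pair the samples, but a pairing without a shared deviation would not be seen this way. With a replicate block 8 markers rose in Alport vehicle, 5 fell with losartan, 1 fell with metformin, and 3 and 6 stood above wild type with losartan and metformin, against 3 and 7 without it.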
